A study of Mus musculus with 4 samples.

Results

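The striatum of mice homozygous for the HDQ200 knock-in allele was compared with that of mice homozygous for the HDQ150 allele, gene by gene, with 1 library for each genotype. Genes were taken where they had a name and a mean FPKM (fragments counted per length of transcript and per library size) of at least 1 over the 4 libraries of the series, which held for 12966 of 29144 features. Of these, 86 short non-coding RNA features were set aside, and so were 12 features listed at 0 in 1 or both of the compared libraries, leaving 12868. At the edge of the rule, Sh3bp2 was just inside at a mean of 1.001 FPKM and BC061194 just outside at 0.999 FPKM. The study took knock-in mice with different huntingtin alleles, on the C57BL/6J background, and sequenced the poly A+ RNA of flash frozen striatum as paired ends at 21 weeks of age. The genotypes were HDQ150/150 and HDQ200/200, each with 2 mutant alleles and no wild-type allele; HDQ315/+, with 1 mutant and 1 wild-type allele; and HDQ+/+, the wild type. HDQ315/+ and HDQ+/+ are given here only as levels beside the comparison. Sex, the number of animals per library and any pooling of tissue are not given in the labels.

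Huntington's disease is caused by expansion of a CAG repeat in the first exon of the huntingtin gene, which lengthens a run of glutamines in the protein, and longer repeats go with earlier onset in people. The neurons most affected are the GABAergic projection neurons of the striatum, which receive glutamatergic input from cortex and thalamus and dopamine from the midbrain. They form a direct pathway, which carries the D1 dopamine receptor and substance P, and an indirect pathway, which carries the D2 receptor and enkephalin.

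The libraries held 33468936 fragments in HDQ200/200 and 25058814 in HDQ150/150. The median tested gene had a log2 ratio, HDQ200/200 over HDQ150/150 on log2(FPKM + 1), of −0.06. Transcripts of the mitochondrial genome made up 9.10% of the scaled counts in HDQ200/200 and 15.4% in HDQ150/150, or 12.3% in HDQ150/150 without mt-Co1, which was listed at 30266 FPKM there and at 0 in the other 3 libraries. Genes of striatal projection neurons were abundant in both. Ppp1r1b, which encodes the dopamine- and cAMP-regulated phosphoprotein DARPP-32, stood at 425 FPKM in HDQ150/150 and 293 FPKM in HDQ200/200, and Penk at 305 and 247 FPKM. Genes of cortical glutamatergic neurons, which mark another region, were present too. They summed to 543 FPKM in HDQ150/150 and 313 FPKM in HDQ200/200, beside 231 FPKM in HDQ+/+. Markers of neighbouring thalamus and of liver were low in both, with Prkcd at 2.98 and 3.65 FPKM, Tcf7l2 at 3.55 and 3.82 FPKM and Alb at 0.118 and 0.101 FPKM. With no replicate library, no difference below has a replicate check or a p-value, the intervals of count ratios are exact Clopper-Pearson 95% intervals that cover counting error only, and a difference between 2 libraries cannot be told apart from a difference between animals, dissections or library preparations.

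A gene was called higher or lower from 1.5-fold, a log2 ratio of 0.58 in either direction. By that rule 981 genes were higher in HDQ200/200, 7.62% of those tested, and 1381 were lower, 10.7%. With median centring the counts were 1283 higher and 1042 lower, and with upper quartile scaling 1353 and 944, so that 55.2% or 58.9% of the called genes were higher, beside 41.5% as deposited. Of the 2362 called genes as deposited, 2334 had an interval of the count ratio that excluded 1. The called genes differed in transcript length. Genes higher in HDQ200/200 had a median annotated transcript of 7082 bases, all tested genes 3447 bases and genes lower in HDQ200/200 1484 bases. They differed in base composition too, with a median GC content of 43.8% in the higher genes, 49.7% in all and 54.1% in the lower genes.

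**Figure D1:**
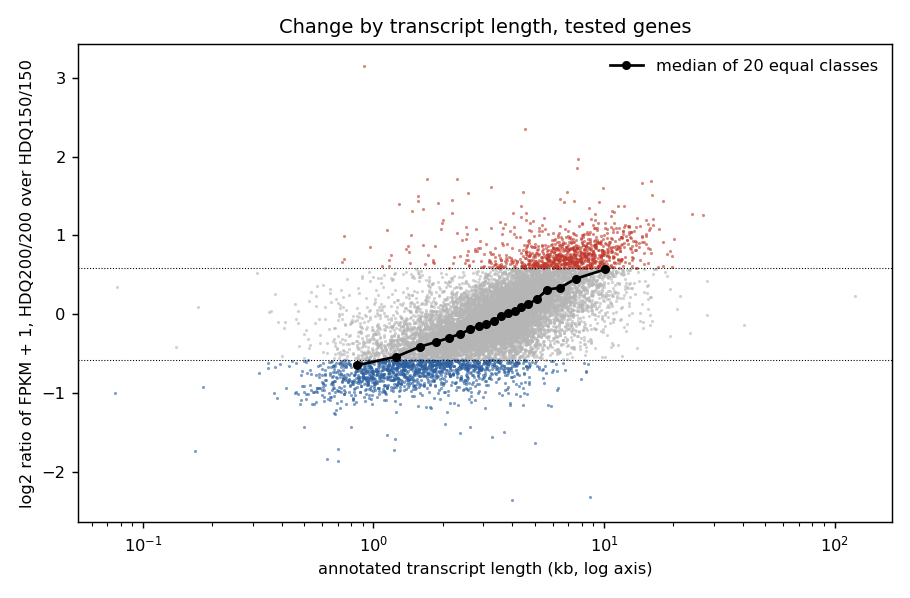
Log2 ratio of FPKM + 1, HDQ200/200 over HDQ150/150, for each tested gene with an annotated length (y axis), against the length of its longest annotated transcript in kb on a log axis (x axis). Red points are genes higher and blue points genes lower by 1.5-fold (dotted lines), and the black line, the median of equal classes of genes, climbs from below −0.5 at the short end to above 0.5 at the long end.

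Sorted into 5 equal classes by effective transcript length, the median log2 ratio was −0.49 in the shortest class, −0.21, −0.05 and 0.09 in the next 3, and 0.35 in the longest. In the shortest class 38.6% of genes were lower and 1.24% higher. In the longest class 0.155% were lower and 25.02% higher. The same classes set each library against HDQ+/+ as follows: the shortest and longest classes had medians of −0.40 and 0.29 in HDQ200/200, 0.08 and −0.08 in HDQ150/150, and 0.25 and −0.14 in HDQ315/+. HDQ200/200 was thus the library whose long transcripts read high and short transcripts low against each of the other 3, with 0.41 and −0.66 against HDQ315/+. Part of what follows is therefore given both as deposited and after subtraction of the running median over genes ordered by effective length, called length-corrected here. The share of length in each single difference was not tested.

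**Figure D2:**
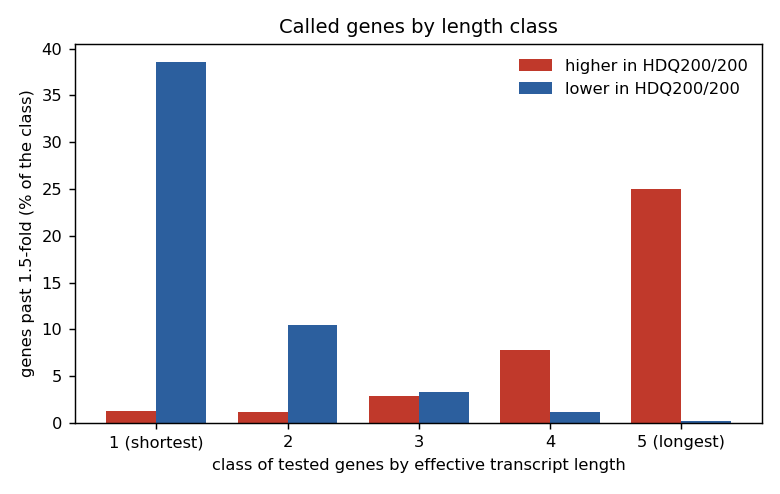
Share of tested genes called higher (red) or lower (blue) in HDQ200/200 than in HDQ150/150, in % of the class (y axis, from 0), by class of effective transcript length (x axis). Lower genes make up 38.6% of the shortest class and higher genes 25.02% of the longest.

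After length correction 560 genes were higher, 4.35% of those tested, and 246 were lower, 1.91%, together 806 genes or 6.26%. The share of called genes that were higher went from 41.5% to 69.5%. Genes past the fold both as deposited and after length correction numbered 351 higher, 2.73% of those tested, and 160 lower, 1.24%. They are the calls kept in the text below. Of these, 204 higher and 99 lower genes also passed the fold in the deposited scaled counts and had a mean of at least 5 FPKM. The kept higher genes still had longer transcripts, at a median of 5460 bases, and a lower GC content, 41.6%, than the kept lower genes, at 2538 bases and 56.1%.

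Huntingtin itself, the gene that carries the repeat (Htt, chr5:34761740-34912521, mm10), stood at 4.42 FPKM in HDQ150/150 and 7.68 in HDQ200/200, beside 7.56 in HDQ+/+ and 4.78 in HDQ315/+. As deposited, and with no length correction against HDQ+/+, the value of HDQ200/200 lay near that of HDQ+/+. HDQ150/150 and HDQ315/+ were lower than both. From 3722 fragments against 1578, the ratio of scaled counts of Htt was 1.66 (interval 1.57 to 1.76), and its log2 ratio was 0.68, past the fold. Htt has a long transcript, 13215 bases, and its length-corrected log2 ratio was −0.042. Among 47 tested genes within 2 Mb of Htt 2 were higher (Whsc1 and Prr14l), 3 were lower (Ywhah, Gm1673 and Fam53a), beside 7.62% higher and 10.7% lower over all tested genes, and 0 were kept after length correction. Of the 9 tested polyglutamine disease genes 3 were higher, Htt, Atxn3 (0.61) and Atxn7 (0.73), beside 7.62% of all tested genes. After length correction 0 remained past the fold, beside 4.35% higher over all tested genes, Atxn3 standing at 0.53 and Atxn7 at 0.55.

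Genes shared by both classes of projection neuron were on balance higher in HDQ200/200 than in HDQ150/150. Of 31 tested features 10 were higher and 0 lower, with a median log2 ratio of 0.35, beside 7.62% higher, 10.7% lower and a median of −0.06 over all tested genes. After length correction 9 were higher, 0 lower, and the median was 0.21, beside 4.35% and 1.91% of all tested genes, and 6 were kept. The 6 kept include a minor feature of Kcnab1 that rested on few fragments. The summed level of the list did not differ in the same way: it was 3504 FPKM in HDQ150/150 and 3506 in HDQ200/200, beside 6207 in HDQ+/+ and 4493 in HDQ315/+. In bulk tissue, fewer cells of a type and less RNA per cell cannot be told apart.

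Pde10a, which encodes the cyclic nucleotide phosphodiesterase that is concentrated in these neurons, stood at 51.4 FPKM in HDQ150/150 and 113 in HDQ200/200, beside 157 in HDQ+/+ and 69.2 in HDQ315/+. Of the 3 mutants HDQ200/200 lay closest to the wild type, with a log2 ratio over HDQ150/150 of 1.12 for Pde10a, 0.72 after length correction, and a count ratio of 2.30 (2.24 to 2.35). Strn, encoding the calmodulin-binding scaffold striatin, stood at 17.04 FPKM in HDQ150/150 and 45.0 in HDQ200/200, beside 39.5 in HDQ+/+ and 20.7 in HDQ315/+, a log2 ratio of 1.35, or 0.87 length-corrected. Dgkb, a diacylglycerol kinase, stood at 44.9, 92.7, 102 and 51.9 FPKM in HDQ150/150, HDQ200/200, HDQ+/+ and HDQ315/+, the order of every such run of values, a log2 ratio of 1.03, or 0.85 length-corrected. With length and GC correction Dgkb had 0.495, short of the fold, while Pde10a had 0.65 and Strn 0.70. In Strn and Dgkb too, as deposited, HDQ200/200 lay near HDQ+/+, and HDQ150/150 lay near HDQ315/+. The levels of Pde10a, Strn and Dgkb were not length-corrected against HDQ+/+. In the longest length class the median log2 ratio over HDQ+/+ was 0.29 in HDQ200/200, −0.08 in HDQ150/150 and −0.14 in HDQ315/+.

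Cnr1, the CB1 cannabinoid receptor, stood at 29.1 FPKM in HDQ150/150 and 50.2 in HDQ200/200, beside 82.7 in HDQ+/+ and 29.8 in HDQ315/+, a log2 ratio of 0.77, or 0.61 length-corrected. Cnr1 had 0.46 with annotated length correction and 0.44 with length and GC correction, both short of the fold. Pde7b, a cAMP phosphodiesterase, had a log2 ratio of 0.80, or 0.68 length-corrected. The other members past the fold were Ano3 (0.70), Gnal, the olfactory-type G protein subunit that couples D1 and adenosine receptors to adenylyl cyclase (0.67), and the transcription factors Foxp1 (0.67) and Bcl11b (0.65), with length-corrected values of 0.55, 0.38, 0.32 and 0.32, all short of the fold. The tenth was a minor feature of Kcnab1 that rested on 1 fragment in HDQ150/150 and 9 in HDQ200/200, while the main Kcnab1 feature had a log2 ratio of 0.52.

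Some of the most abundant projection neuron transcripts had values on the other side of 0. Ppp1r1b stood at 425 FPKM in HDQ150/150 and 293 in HDQ200/200, beside 830 in HDQ+/+ and 602 in HDQ315/+, so that HDQ200/200 was the lowest of the 4 libraries, with a log2 ratio of −0.54 and −0.38 after length correction. Hpca, which encodes the calcium sensor hippocalcin, had −0.53 and −0.34, and Camk2n1, an inhibitor of CaM kinase II, −0.49 and −0.56. None of these passed the fold, and HDQ200/200 was also the lowest library for Hpca (591, 409, 731 and 759 FPKM) and Camk2n1 (396, 282, 444 and 328 FPKM). Rgs9, a brake on G protein signalling, shows how far the deposited FPKM and counts can part: its log2 ratio was 0.05 on FPKM, from 81.7 and 84.3 FPKM, and its count ratio was 1.59 (1.55 to 1.63).

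Between the pathways, Drd1a, the D1 dopamine receptor of the direct pathway, stood at 32.7 FPKM in HDQ150/150 and 51.5 in HDQ200/200, beside 85.9 in HDQ+/+ and 44.7 in HDQ315/+. All 3 mutants were below the wild type, and HDQ200/200 was over HDQ150/150 with a log2 ratio for Drd1a of 0.64, or 0.63 length-corrected, and a count ratio of 1.502 (1.43 to 1.58). With GC correction Drd1a had 0.52, and with length and GC correction 0.48, both short of the fold. Ebf1, a transcription factor of direct pathway neurons, was the other higher gene of the 9 tested in that list (0.71, or 0.46 length-corrected). The direct pathway list had 0 lower genes and a median of 0.13, beside 7.62% higher and 10.7% lower over all tested genes. The peptide precursors Tac1 (substance P) and Pdyn (dynorphin) had −0.28 and 0.33, and 0.33 and 0.45 after length correction.

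In the indirect pathway list, Gpr52, an orphan receptor coupled to cAMP, was the 1 higher gene of 7 (0.61, or 0.73 length-corrected). That list had 0 lower genes and a median of −0.01, beside 7.62% higher and 10.7% lower over all tested genes. Penk, the enkephalin precursor, stood at 305 FPKM in HDQ150/150 and 247 in HDQ200/200, beside 1029.5 in HDQ+/+ and 570 in HDQ315/+, a log2 ratio of −0.31, or −0.04 length-corrected. Both homozygous libraries were far below HDQ+/+ for Penk and close to each other. Adora2a, the adenosine receptor of these neurons, had −0.15 and −0.07, and Drd2, the D2 dopamine receptor, 0.24 and 0.50.

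Genes of cortical glutamatergic neurons went the other way and did so with and without length correction. Of 18 tested members 0 were higher and 7 lower in HDQ200/200, at a median of −0.50, beside 10.7% lower and a median of −0.06 over all tested genes. After length correction 7 were lower at a median of −0.52, beside 1.91% of all, and 6 were kept.

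Slc17a7, the vesicular glutamate transporter VGLUT1 of cortical neurons, stood at 199 FPKM in HDQ150/150 and 106 in HDQ200/200, beside 57.0 in HDQ+/+ and 71.7 in HDQ315/+. HDQ150/150 was the highest of the 4 libraries for Slc17a7 and HDQ200/200 the second highest, with a log2 ratio of −0.90, −0.83 length-corrected, and a count ratio of 0.549 (0.535 to 0.563). Slc30a3, the vesicular zinc transporter of such neurons, stood at 22.2, 8.83, 4.99 and 7.66 FPKM, a log2 ratio of −1.24, or −1.07 length-corrected. Nrn1, encoding the activity-regulated neuritin, stood at 78.4, 33.7, 27.8 and 56.6 FPKM, a log2 ratio of −1.19, or −0.78 length-corrected. In each of these HDQ150/150 was the highest library.

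The other lower members were Emx1 (−1.17, or −0.81 length-corrected), Neurod2 (−0.89 and −0.89) and Fezf2 (−0.64 and −0.49), which are transcription factors of forebrain excitatory neurons, and Rtn4r, the Nogo receptor (−1.07 and −0.87). Tbr1, a transcription factor of deep-layer and early-born cortical neurons, came close at −0.55, or −0.53 length-corrected. These genes mark neurons of another region than the labelled one. Summed over the 18 members, their level was 543 FPKM in HDQ150/150 and 313 in HDQ200/200, beside 231 in HDQ+/+ and 286 in HDQ315/+, and none was at 0 in either compared library. The part of this difference in the projection neuron and other results was not tested.

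**Figure D3:**
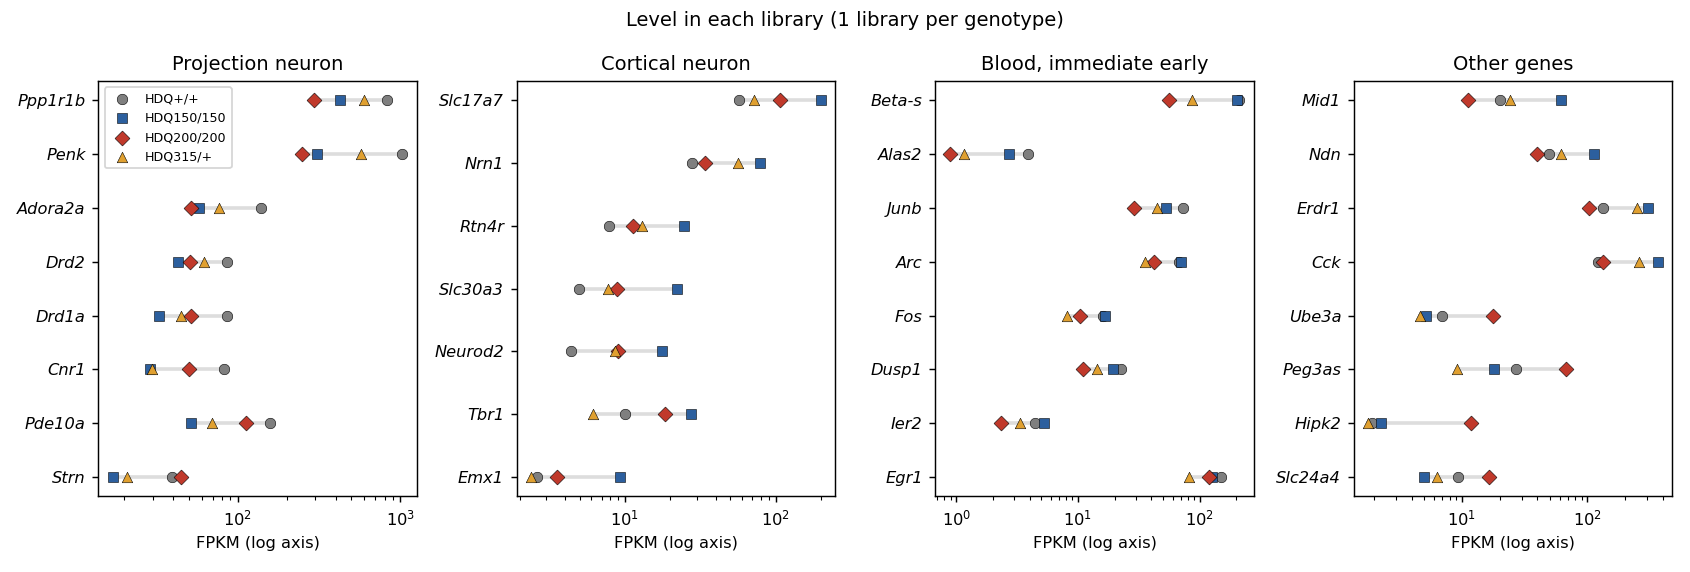
FPKM on a log axis (x axis) for named genes (y axis) in the 4 libraries, 1 per genotype; grey circles are HDQ+/+, blue squares HDQ150/150, red diamonds HDQ200/200 and yellow triangles HDQ315/+. For the cortical genes shown HDQ150/150 is the highest library in each row, and for Strn, Pde10a, Cnr1, Drd1a and Drd2 it is the lowest.

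HDQ150/150 was the highest library for several neuropeptide genes as well, among them Cck, Cartpt and Npy. Cck, the cholecystokinin precursor, abundant in cortical neurons, stood at 366 FPKM in HDQ150/150 and 134 in HDQ200/200, beside 123 in HDQ+/+ and 258 in HDQ315/+, a log2 ratio of −1.44, or −0.77 length-corrected. Cartpt, the precursor of cocaine- and amphetamine-regulated transcript peptides, stood at 6.59, 1.53, 4.24 and 1.54 FPKM, a log2 ratio of −1.58, or −0.94 length-corrected, from 35 fragments in HDQ200/200 and 104 in HDQ150/150. With length and GC correction Cck had −0.53, short of the fold, and Cartpt −0.80, past it. Cck and Cartpt were the 2 kept of 7 lower genes among 15 tested neuropeptide and opioid receptor genes. Of all tested genes 10.7% were lower and 1.24% kept as lower. The median of these 15 was −0.55 as deposited and −0.10 after length correction. The interneuron peptides Sst (somatostatin) and Npy (neuropeptide Y) had −0.99 and −1.11, and −0.26 and −0.37 length-corrected.

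Among 13 tested striatal interneuron genes, 3 were lower (Npy, Sst and the parvalbumin gene Pvalb) and 2 higher, beside 10.7% and 7.62% of all tested genes. After length correction 0 were lower and 1 was higher, beside 1.91% and 4.35% of all tested genes. The higher pair was Nos1, neuronal nitric oxide synthase (1.16, or 0.56 length-corrected), and Slc5a7, the choline transporter of cholinergic interneurons (0.75, or 0.67 length-corrected), while Chat, the acetylcholine-synthesising enzyme, had 0.29.

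Red blood cell transcripts were the group furthest below 0. All 4 tested features were lower, at a median of −1.79, beside 10.7% lower and a median of −0.06 over all tested genes. All 4 remained lower after length correction, at −1.06, beside 1.91% of all tested genes. Beta-s, an adult beta globin gene that was not in the list, stood at 201 FPKM in HDQ150/150 and 55.4 in HDQ200/200, beside 212 in HDQ+/+ and 86.1 in HDQ315/+, a log2 ratio of −1.84, or −1.13 length-corrected. HDQ+/+ and HDQ150/150 were high and HDQ200/200 and HDQ315/+ low. Alas2, the erythroid enzyme that begins haem synthesis, had 2.73 FPKM in HDQ150/150 and 0.887 in HDQ200/200, from 158 and 72 fragments, a log2 ratio of −0.98, or −0.85 length-corrected. Globin genes are near-identical copies, so the split of reads among Hba-a1, Hba-a2, Hbb-b1, Hbb-b2 and Beta-s is uncertain. Summed over the 4 features of the list, the level was 127 FPKM in HDQ150/150 and 33.6 in HDQ200/200, beside 133 in HDQ+/+ and 46.6 in HDQ315/+. How much blood each striatum held is not given in the sources used here.

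Activity-induced immediate early genes, which neurons switch on within minutes of stimulation, were lower in part. Of 27 tested members 0 were higher and 9 lower, at a median of −0.46, beside 10.7% lower over all tested genes. After length correction 4 were lower at a median of −0.36, beside 1.91%, and the same 4 were kept: Arc, Nptx2, Junb and Jund. These calls depended on the correction: with GC correction the median of the list was −0.11, and Arc (−0.40), Junb (−0.41) and Nptx2 (−0.48) fell short of the fold, as they did with annotated length (−0.58, −0.47 and −0.57) and with length and GC correction (−0.51, −0.29 and −0.43).

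Arc, whose protein regulates AMPA receptor trafficking at active synapses, stood at 69.5 FPKM in HDQ150/150 and 42.2 in HDQ200/200, beside 67.6 in HDQ+/+ and 35.2 in HDQ315/+, a log2 ratio of −0.71, or −0.80 length-corrected, and a count ratio of 0.630 (0.608 to 0.652). Junb, an AP-1 transcription factor, stood at 53.3, 29.0, 73.0 and 44.9 FPKM, a log2 ratio of −0.85, or −0.62 length-corrected. Nptx2, a secreted pentraxin of excitatory synapses, had −0.79 and −0.70. HDQ200/200 was the lowest library for Junb, and HDQ315/+ was lower still for Arc. The other lower members were Ier2 (−0.91, or −0.55), the phosphatase Dusp1 (−0.76, or −0.53), Klf2 (−0.72, or −0.35), Egr4 (−0.66, or −0.40) and Fos (−0.63, or −0.46). Egr1, a zinc finger factor induced with Fos, had −0.08, and Nr4a3 and Homer1 had 0.56 and 0.50.

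Many promoters of this class bind CREB at the cAMP response element TGACGTCA, so the upstream sequences were read for it, on both strands, in the 250 bases before the annotated start (RefSeq, GRCm38.p6). Of 20 immediate early genes with a promoter in that table, 2 held it, or 10%, beside 3.11% of 9689 tested genes. They were Dusp1 and Btg2, the latter an antiproliferative gene whose log2 ratio of −0.58 fell just short of the fold. Both are shown because they hold the full element, which is in capitals; the Dusp1 stretch is chr17:26508473-26508722 and the Btg2 stretch chr1:134079156-134079405, both on the minus strand and written 5′ to 3′.
Dusp1: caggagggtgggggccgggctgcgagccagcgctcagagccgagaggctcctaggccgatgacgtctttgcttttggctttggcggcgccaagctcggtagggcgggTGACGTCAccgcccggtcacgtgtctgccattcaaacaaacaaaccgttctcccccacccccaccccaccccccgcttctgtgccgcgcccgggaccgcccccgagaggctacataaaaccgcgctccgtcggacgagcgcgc
Btg2: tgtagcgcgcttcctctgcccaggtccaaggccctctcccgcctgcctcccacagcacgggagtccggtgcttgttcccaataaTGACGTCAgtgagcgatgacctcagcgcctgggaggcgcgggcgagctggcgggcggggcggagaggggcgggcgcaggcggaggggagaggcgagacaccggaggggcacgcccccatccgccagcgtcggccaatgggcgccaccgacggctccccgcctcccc
A match describes the letters only. Fos and Junb, which were past the fold, had no full element in this window.

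**Figure D4:**
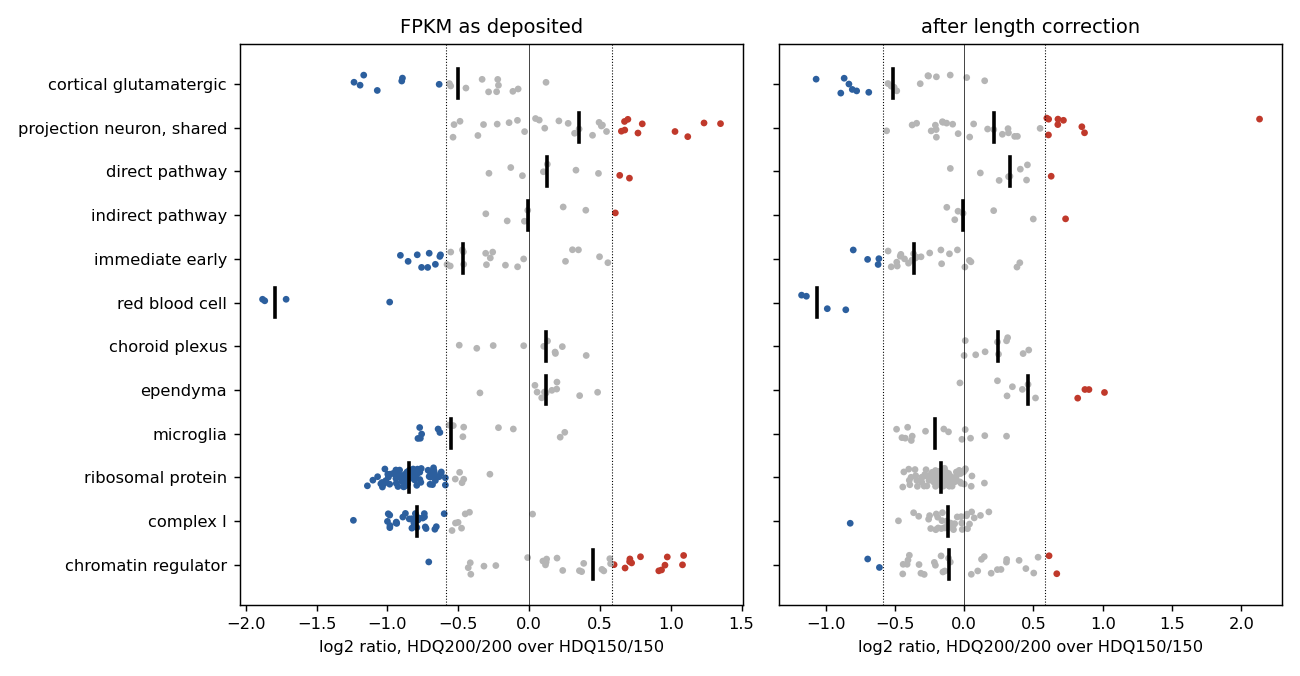
Log2 ratio of each tested member of 12 gene lists, HDQ200/200 over HDQ150/150, as deposited (left) and after length correction (right); points past 1.5-fold (dotted lines) are red when higher and blue when lower, and black bars are list medians. Ribosomal protein and complex I genes lie at medians of −0.85 and −0.79 on the left and at −0.16 and −0.11 on the right, while cortical glutamatergic genes lie at −0.50 and −0.52.

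The largest groups of lower genes were short and abundant. Beside them, 10.7% of all tested genes and 38.6% of the shortest length class were lower. Cytosolic ribosomal protein genes were lower in 74 of 79 cases, at a median of −0.85. Subunits of respiratory complex I, which feeds electrons from NADH into the chain, were lower in 29 of 36 cases, at a median of −0.79, and those of complexes III to V in 28 of 34 cases, at a median of −0.82. Proteasome subunits were lower in 13 of 37 cases, at a median of −0.46. After length correction the medians were −0.16, −0.11, −0.10 and −0.08. The genes then past the fold numbered 0, 1, 0 and 0, beside 6.26% of all tested genes in either direction. The members still lay mostly below 0 after the correction, 73 of 79, 28 of 36, 27 of 34 and 23 of 37 in the same order, and with a correction on annotated length the ribosomal protein median was −0.29.

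Rps21, a small ribosomal subunit protein, stood at 461 FPKM in HDQ150/150 and 208 in HDQ200/200, beside 385 in HDQ+/+ and 458 in HDQ315/+, a log2 ratio of −1.14, and −0.28 after length correction. Rps15a, whose feature had the longest effective length of the 79, had the highest log2 ratio of the family, −0.28. Ndufc1, a complex I subunit with a log2 ratio of −1.24, stood at 110.4, 46.1, 74.7 and 72.6 FPKM, and Ndufs1, the large iron-sulphur subunit, had 0.02. HDQ200/200 was the lowest library for Rps21 and Ndufc1.

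Ribosomal protein transcripts classically begin at a C followed by a run of pyrimidines, the element through which their translation is tuned. Such a run, of at least 5 bases beginning with a C at the annotated start or 1 base to either side, was found in 19 of 58 ribosomal protein genes with a start in the RefSeq table, or 32.8%, and in 861 of 9689 tested genes, or 8.89%. Windows of 30 bases centred on the start are shown as examples for 4 of the lower genes, picked by hand, 3 with the run in capitals and Rpl39 without one, although most of the family lacked it. A second annotated start of Rps21 lacked the run too. They are Rps21 at chr2:180257364-180257393 (plus strand), Rps27 at chr3:90213634-90213663 (minus), Fau at chr19:6057932-6057961 (plus) and Rpl39 at chrX:37085208-37085237 (minus), on GRCm38.p6.
Rps21: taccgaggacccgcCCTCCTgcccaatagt
Rps27: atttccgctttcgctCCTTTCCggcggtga
Fau: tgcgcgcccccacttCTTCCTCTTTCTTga
Rpl39: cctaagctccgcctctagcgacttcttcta
The log2 ratios of the genes shown were −1.14 for Rps21, −1.04 for Rps27, −1.02 for Fau and −1.10 for Rpl39, and whether the ratio differs with the run was not tested.

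At the other end of the length scale, chromatin regulators, many of them very large proteins, were higher in 12 of 32 cases and lower in 1. Their median was 0.45. Among all tested genes 7.62% were higher and 10.7% lower, and in the longest length class 25.02% and 0.155%. After length correction the median of the chromatin regulators was −0.11, with 2 higher and 2 lower, beside 4.35% and 1.91% of all tested genes. Ash1l, a histone methyltransferase, stood at 8.76 FPKM in HDQ150/150 and 19.8 in HDQ200/200, beside 12.1 in HDQ+/+ and 8.35 in HDQ315/+, a log2 ratio of 1.09, or 0.50 length-corrected. Atrx, a chromatin remodeller, had 1.08 and 0.61, and Tet2, which oxidises methylcytosine, 0.93 and 0.67. HDQ200/200 was the highest of the 4 libraries for Ash1l. Hdac5, a class IIa histone deacetylase, was the 1 lower gene, at −0.71 on FPKM, with a count ratio of only 0.893 (0.855 to 0.933).

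Ionotropic glutamate receptor subunits were higher in 4 of 17 cases and lower in 0, beside 7.62% and 10.7% of all tested genes. Their median was 0.30, or −0.02 after length correction, and 3 were kept as higher, beside 2.73% of all tested genes. Grin2a, the NMDA receptor subunit GluN2A, stood at 1.69 FPKM in HDQ150/150 and 7.53 in HDQ200/200, beside 2.30 in HDQ+/+ and 0.894 in HDQ315/+, a log2 ratio of 1.66, or 1.01 length-corrected, and a count ratio of 4.36 (3.97 to 4.80). HDQ200/200 was above all other libraries for Grin2a by a wide margin. Gria2, the AMPA receptor subunit that limits calcium entry, had 0.88 and 0.63, and Grik2, a kainate receptor subunit, 0.82 and 0.75, while Grin2b (GluN2B) had 1.27 and fell short of the fold after length correction at 0.48. Grin1, the obligate NMDA receptor subunit, had 0.00.

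Of 66 potassium channel features 9 were higher and 4 lower, beside 7.62% and 10.7% of all tested genes, at a median of 0.07, or −0.16 after length correction. After that correction 6 were higher and 5 lower, beside 4.35% and 1.91% of all tested genes. Kept were 4 higher and 2 lower, beside 2.73% and 1.24%.

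At the release site, 5 of 32 synaptic vesicle release features were higher and 3 lower, beside 7.62% and 10.7% of all tested genes, and 2 of each were kept, beside 2.73% and 1.24%. Stx1a, the plasma membrane SNARE syntaxin 1A, stood at 54.5 FPKM in HDQ150/150 and 28.7 in HDQ200/200, beside 19.3 in HDQ+/+ and 18.9 in HDQ315/+, a log2 ratio of −0.90, or −0.85 length-corrected. Rims1, an active zone scaffold, was held by 2 features. One, at 5.85, 17.9, 5.64 and 1.75 FPKM, had a log2 ratio of 1.46, or 1.55 length-corrected. The other, at 31.3, 34.1, 23.1 and 18.9 FPKM, had 0.12, and how reads were divided between the features is not given in the labels.

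Mature oligodendrocyte genes had 0 higher and 0 lower of 19, at a median of −0.22, and precursor genes 0 and 0 of 9. Of all tested genes 7.62% were higher and 10.7% lower. Microglia genes had 6 lower of 14, beside 10.7% of all tested genes, at a median of −0.55. Among the 6 were the complement genes C1qa (−0.76) and C1qb (−0.77). After length correction 0 microglia genes were past the fold, at a median of −0.21. Astrocyte genes had 3 higher of 15, the bicarbonate transporter Slc4a4 (0.97), the glutamate transporter Slc1a2 (0.85) and the water channel Aqp4 (0.63), and 1 lower, the glycolytic enzyme Aldoc (−0.61), beside 7.62% and 10.7% of all tested genes. After length correction 1 was higher, Slc4a4 (0.61), and 0 were lower, beside 4.35% and 1.91% of all tested genes. Endothelial and mural genes had 2 lower of 15, Cldn5 (−0.83) and Ly6c1 (−0.65), beside 10.7% of all tested genes. After length correction 0 of them were past the fold.

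Choroid plexus and ependyma, which line the ventricle beside the striatum, held no called gene as deposited. Choroid plexus genes had 0 higher and 0 lower of 10, beside 7.62% and 10.7% of all tested genes, at a median of 0.12. Ttr, transthyretin, stood at 63.9 FPKM in HDQ150/150 and 49.2 in HDQ200/200, beside 1519.9 in HDQ+/+ and 305 in HDQ315/+, so that the 2 homozygous libraries were close to each other and far below the others. Ependymal genes had 0 and 0 of 11, at a median of 0.12. After length correction 4 ependymal genes were higher, beside 4.35% of all tested genes, and the median was 0.46.

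The genes furthest apart in the comparison were single genes. Mid1, an X-linked ubiquitin ligase, was the lowest, at 61.9 FPKM in HDQ150/150 and 11.2 in HDQ200/200, beside 20.2 in HDQ+/+ and 24.4 in HDQ315/+. HDQ150/150 was the outlying library, and the log2 ratio of Mid1 was −2.36, −2.33 length-corrected, with a count ratio of 0.194 (0.182 to 0.207). The feature G530011O06Rik at the same locus had −1.51 and −1.36. Erdr1, placed on the Y chromosome in the table, showed the same order at 304, 103, 134 and 249.8 FPKM, a log2 ratio of −1.55, or −0.98 length-corrected. In the C57BL/6J genome Mid1 and Erdr1 both lie at the pseudoautosomal boundary of the sex chromosomes, which makes read placement there uncertain.

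Next at the low end came a feature of Peg3, described with its locus, and then globin features, Bc1, a short neuronal RNA seen through 43 and 14 fragments (−1.74, or −0.84 length-corrected), and Cxx1b (−1.72, or −1.31), whose near-identical relatives Cxx1a and Cxx1c had −0.15 and −0.54. Chst15, a chondroitin sulphotransferase, was low in 1 of its 2 features (−1.64) and had 0.43 in the other. Myl4, a myosin light chain (−1.56, or −1.03), and Dkkl1 (−1.53, or −1.04) both had HDQ150/150 as the highest library. Myl4 stood at 19.98 FPKM in HDQ150/150 and 6.11 in HDQ200/200, beside 6.27 in HDQ+/+ and 4.86 in HDQ315/+, and Dkkl1 at 15.7, 4.80, 3.96 and 2.61 FPKM.

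Ribosomal RNA behaved as one of the lower items. Rn45s, the ribosomal RNA precursor, stood at 4471 FPKM in HDQ150/150 and 1824 in HDQ200/200, beside 2288 in HDQ+/+ and 2048 in HDQ315/+, a log2 ratio of −1.29, or −1.38 length-corrected. Rn45s took 1.69% of the scaled counts in HDQ150/150 and 0.771% in HDQ200/200. Lars2, a mitochondrial leucyl-tRNA synthetase gene known to hold a ribosomal RNA-like repeat, followed it at 335, 152, 167 and 165 FPKM, a log2 ratio of −1.13, or −1.28. For Rn45s and Lars2, a pair put together after their values were seen, HDQ150/150 was the library that stood apart. Poly A+ selection is meant to remove such RNA, and the part of these reads in the other differences was not tested.

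At the high end, Gm3893 had the largest log2 ratio, 3.15, from 0.799 FPKM in HDQ150/150 and 15.003 in HDQ200/200, with 6.09 in HDQ+/+ and 5.48 in HDQ315/+. It lies in a multi-copy stretch of chromosome 4, so its reads cannot be placed with certainty. Hipk2, a nuclear kinase, stood at 2.28 FPKM in HDQ150/150 and 11.8 in HDQ200/200, beside 1.91 in HDQ+/+ and 1.798 in HDQ315/+, a log2 ratio of 1.97, or 1.75 length-corrected, and a count ratio of 5.86 (5.18 to 6.65). Nr2c2, an orphan nuclear receptor, stood at 2.09, 10.2, 3.51 and 0.872 FPKM, a log2 ratio of 1.85, or 1.53 length-corrected. For Hipk2 and Nr2c2 it was HDQ200/200 that stood apart, above all 3 other libraries.

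The same held further down the ranking. Slc24a4, a potassium-dependent sodium/calcium exchanger, stood at 4.97 FPKM in HDQ150/150 and 16.5 in HDQ200/200, beside 9.24 in HDQ+/+ and 6.35 in HDQ315/+, a log2 ratio of 1.55, or 1.37 length-corrected. Hs6st3, a heparan sulphate sulphotransferase (1.72, or 1.88), Uprt (1.71, or 2.28) and Tmem245 (1.69, or 1.29) were low in HDQ150/150, from 60, 18 and 224 fragments. Mrs2, a mitochondrial magnesium channel, had 1.18 and 1.44, and Dnajb14, a co-chaperone of the endoplasmic reticulum membrane, 1.42 and 1.20. Sfrs18 was high in 1 feature (2.35, or 2.43) and had 0.50 in the other, at the same coordinates.

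Imprinted genes, which are expressed from 1 parental allele, recurred at both ends, and were therefore listed after their values had been seen. Of 36 tested features 7 were higher and 3 lower, beside 7.62% and 10.7% of all tested genes, at a median of 0.13, and 5 and 2 were kept, beside 2.73% and 1.24%. Ube3a, the ubiquitin ligase that is silenced on the paternal allele in neurons (chr7:59196968-59324149, mm10), stood at 5.19 FPKM in HDQ150/150 and 17.8 in HDQ200/200, beside 6.88 in HDQ+/+ and 4.65 in HDQ315/+, a log2 ratio of 1.60, also 1.60 length-corrected, and a count ratio of 3.24 (2.92 to 3.62). An antisense transcript runs through this locus, and without a stated strand of the counting, reads of Ube3a and of that transcript cannot be told apart. Ipw and D7Ertd715e, from the same imprinted domain, were higher as well, at 0.77 and 0.82, or 1.19 and 1.19 length-corrected. Ndn, necdin, from the same domain, was lower: it stood at 113, 39.4, 49.1 and 61.3 FPKM, a log2 ratio of −1.49, or −1.21 length-corrected.

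The second imprinted stretch was that of Peg3, a zinc finger gene expressed from the paternal allele, where 3 features share the coordinates chr7:6703834-6730419. One Peg3 feature stood at 15.4 FPKM in HDQ150/150 and 2.28 in HDQ200/200, beside 7.83 in HDQ+/+ and 14.03 in HDQ315/+, a log2 ratio of −2.32. The other Peg3 feature stood at 17.8, 37.8, 20.9 and 16.7 FPKM, a log2 ratio of 1.05, and Peg3as at 18.2, 67.2, 27.2 and 9.17 FPKM, a log2 ratio of 1.83. The features of this 1 locus thus pointed in opposite directions, and how reads were divided among them is not given in the labels. Zim3, from the same stretch of chromosome 7, had 1.61, from 1.46 FPKM in HDQ150/150 and 6.52 in HDQ200/200.

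By chromosome, the X chromosome had the highest share of higher genes, 65 of 445 or 14.6%, beside 7.62% of all tested genes. Of these 445 genes 35 were kept as higher, beside 2.73% of all tested genes. Xist, the RNA that coats the inactive X chromosome and is made in females, stood at 17.4 FPKM in HDQ150/150 and 48.7 in HDQ200/200, beside 24.3 in HDQ+/+ and 13.3 in HDQ315/+, a log2 ratio of 1.43, or 0.78 length-corrected. Ddx3y, a Y-linked helicase gene made in males, stood at 4.56, 11.8, 7.43 and 3.98 FPKM, a log2 ratio of 1.20, or 1.26 length-corrected. Both a female and a male transcript were thus present in all 4 libraries and were highest in HDQ200/200. Cdr1, the X-linked locus of an abundant circular RNA of brain, was higher in both features that share its coordinates (1.502 and 1.43, or 1.65 and 1.28 length-corrected), and which molecule gave those reads is not known from a gene-level table. Chromosome 7 had the highest share of lower genes, 163 of 961 or 16.96%, beside 10.7% of all tested genes. Of its 961 genes 23 were kept as lower, beside 1.24% of all tested genes. Its median GC content was 52.7%, beside 45.5% for the X chromosome.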

How the data were processed

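Each library was assigned to its genotype by the genotype in the labels, and each value column by its name. Per the file headers, the table gives FPKM and count values, and the FPKM values were used with no change. The count values deposited by the authors are a scaled signal: in each library 98.0% to 98.4% of those above 0 were whole multiples, within 0.05, of a step, by which they were divided to give fragments. Per the submitters' processing notes, the build was mm10 and the tools included TopHat2 2.0.11, Bowtie2 2.1.0, Cufflinks 2.1.1, Cuffdiff and Cuffnorm; no source used here gives the strand setting or how libraries were scaled.

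Ratios are of FPKM + 1 on a log2 scale, which understates the change of low genes; a call is 1.5-fold. Features named as short non-coding RNAs, mitochondrial tRNAs included, were not tested. Effective length is the scaled count per FPKM, and the length correction subtracts a running median over 501 genes. Annotated length and GC content come from the longest GENCODE M21 transcript and were found for 99.2% of tested genes; 59 symbols are held by more than 1 tested feature. No p-value was computed with 1 library per genotype. The steps were tested on simulated data (Python 3.11.15, numpy 2.4.6, pandas 2.3.3, scipy 1.17.1).

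Named in the text are Htt, the 12 highest and 12 lowest genes as deposited and after length correction, and the highest, lowest and best-known members of each list; Btg2, Fau, Rps27, Egr1, Tbr1, Rgs9, the chromosome 7 and X neighbours of named genes and some further list members were added after their values were seen. Members, lists and tests were chosen with earlier results of these data known, and the imprinted and ribosomal RNA lists after values were seen. Some genes, and lists whose calls rest on them, are not reported here.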

Additional observations from a re-analysis of the deposited data

How the results depend on the processing

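No paired analysis was possible because each genotype had 1 library, and leaving out a replicate was not possible for the same reason. The length-corrected counts were 560 higher and 246 lower. A correction on annotated length gave 436 and 441, and length followed by GC correction 244 and 130; both were chosen after seeing the data. GC correction alone gave 818 and 833. A pseudocount of 5 gave 352 and 794, and a fold size of 2 gave 134 and 108. Scaled counts gave 1521 higher, and a mean FPKM of at least 10 gave 381 higher. Of called genes 49.5% were higher after GC correction, 49.7% after annotated length correction and 65.2% after both. Members of lists past the fold numbered 302 as deposited, 80 after length correction, 96 with annotated length and 43 after length and GC correction. The longest and the shortest length class differed by 0.84 in median log2 ratio, by 0.97 with a pseudocount of 0.1, 0.58 with a pseudocount of 5, 0.97 on scaled counts and 0.61 with no filter on low values.

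Medians changed sign, with at least 0.1 on either side of 0, for 7 lists. Length correction took chromatin regulators to −0.11, neuropeptides of neighbouring regions to 0.10 and liver genes to 0.21. Annotated length gave 0.27 and 0.19 for the last 2 lists and 0.15 for interferon-induced genes. Length and GC correction gave 0.17 and 0.25 for the same 2 lists, 0.12 for striatal interneuron genes and −0.12 for long non-coding RNAs. With the mean FPKM taken over the compared libraries alone, also chosen after seeing the data, choroid plexus genes had −0.12. Htt went from 0.68 to −0.042 with length correction. The cause of these shifts was not tested. The deposited tables give 1 library per genotype, so depth limits only the precision of single genes and not how far animals differ.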

Other observations

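Of 16 tested phosphodiesterase genes 3 were higher, Pde10a, Pde7b and the calcium-dependent Pde1c (0.84), and 0 were lower, at a median of 0.21, beside 7.62% higher and 10.7% lower over all tested genes. Of 17 regulators of G protein signalling 1 was higher and 3 were lower, beside 7.62% and 10.7% of all tested genes. Rgs7bp (0.60) was higher, and Rgs7 (−0.66), Rgs11 (−0.64) and Rgs10 (−0.61) were lower, of which Rgs11 was kept after length correction. Calcium channel subunits had 5 higher and 2 lower of 22, beside 7.62% and 10.7% of all tested genes. Cacnb4, an auxiliary subunit, was the 1 higher gene kept (0.93, or 0.67 length-corrected), and the T-type channel Cacna1g (−0.73, or −0.80) and Cacnb3 (−0.66, or −0.64) were the lower genes kept.

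Receptors for serotonin, dopamine, noradrenaline and acetylcholine had 4 higher and 0 lower of 23, beside 7.62% and 10.7% of all tested genes. The 2 kept were Htr2c, the 5-HT2C serotonin receptor (0.78, or 0.79 length-corrected), and Chrna7, the alpha 7 nicotinic subunit (0.80, or 0.73). Clustered beta protocadherins, single-exon adhesion genes that neurons express in combinations, had 2 higher of 17 and 0 lower, beside 7.62% and 10.7%. Their median was 0.28, or 0.29 after length correction, 0.16 after GC correction and 0.11 after both. Pcdhb16 stood at 0.916 FPKM in HDQ150/150 and 3.08 in HDQ200/200, beside 1.02 in HDQ+/+ and 0.722 in HDQ315/+, a log2 ratio of 1.09, and Pcdhb18 had 0.72. Cytoskeletal genes had 5 lower and 1 higher of 25, beside 10.7% and 7.62% of all tested genes. The stathmins Stmn3 (−1.01), Stmn1 (−0.98) and Stmn4 (−0.76) and the tubulins Tubb2a (−0.69) and Tubb3 (−0.67) were lower. Map1b (0.70) was higher, and 0 cytoskeletal genes were past the fold after length correction. Splicing factors had 0 higher and 1 lower of 40, beside 7.62% and 10.7% of all tested genes. The lower one was a minor feature of Rbfox1 (−1.19) whose main feature had 0.29.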
